A study of Mus musculus with 7 samples.

Results

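The expression of 10 genes of the male germ line, Prm1, Prm2, Tnp1, Tnp2, Acrv1, Pgk2, Ldhc, Crem, Fhl5 and Tssk3, was examined in blood stem cells of the mouse fetal liver. They were chosen by name, as genes of the haploid sperm programme that has been linked to cleavage of TFIIA, and every probe set that names one of them alone was used. This gave 16 probe sets for 10 of the 12393 genes that had a probe set of their own on the array. RNA was measured on 7 Affymetrix arrays, 1 per sample, from cells of embryonic day 14.5 livers put through a double sort that kept cells without lineage antigens and with Sca-1, c-Kit and CD150 on their surface. The 3 samples called TFIIA nc/nc below came from embryos homozygous for the non-cleavable allele of TFIIAα-β (TFIIAα-βnc/nc), with 2, 2 and 4 littermates pooled. The 4 wild-type samples held 1, 1, 4 and 3 embryos. All embryos came from crosses of heterozygous parents, and pooled embryos were littermates. By the labels these are biological replicates, with no litter given as shared by both genotypes, so p-values measure the spread between these samples.

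When a round spermatid matures into a sperm, its histones are replaced first by transition proteins and then by protamines, which pack the DNA tightly enough to silence it. The genes for these proteins, for the acrosome and for sperm-specific enzymes are transcribed in spermatocytes and round spermatids, in part through the activator CREM and its coactivator ACT, the product of Fhl5. TFIIA joins TBP, or the related factor TRF2 (gene Tbpl1), on promoters, and the protease Taspase1 cuts its large subunit in 2, giving the α and β chains. In the testis, uncut TFIIA has been linked to a failure to switch on Tnp1, Prm1 and their neighbours. The comparison here asks whether these genes have any signal in stem cells of the blood, and whether that signal differs when the cut cannot be made. Not every member is a spermatid gene alone, since Pgk2 and Ldhc are switched on before meiosis ends and Crem is also transcribed in many somatic cells.

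CREM is known to act through the cAMP response element, TGACGTCA, and the promoters of the members were searched for these letters because TFIIA and CREM both work there. RefSeq promoter windows (GRCm38.p6) matched 9 of the 10 genes with 11 start sites, and those of Crem were not searched. Within the 250 bases before the start and on both strands, the full element was in 0 of 11 windows, against 1.55% of all 32851 windows. The core TGACG, which the full element also holds, was in the windows of 1 gene, Ldhc, against 17.8% of all windows. Allowing 1 changed base in TGACGTCA, a match was found for 3 genes, Prm1, Tnp1 and Fhl5, in 3 of 11 windows against 10.6% of all. The TATA box core TATAAA was in 1 window, that of Prm2, against 12.4%. No changed base was allowed in it, so variants of the TATA box were not counted. The 120 bases before the start are printed for these 5 genes, 5′ to 3′ on the strand of the gene, with the matched letters in capitals. In Prm2 the capitals read TTTATA, because the match to TATAAA was on the opposite strand.
Prm1, chr16:10796824-10796943, minus strand: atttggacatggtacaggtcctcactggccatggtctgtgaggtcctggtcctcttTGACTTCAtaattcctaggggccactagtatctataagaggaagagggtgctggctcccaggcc
Prm2, chr16:10792106-10792225, minus strand: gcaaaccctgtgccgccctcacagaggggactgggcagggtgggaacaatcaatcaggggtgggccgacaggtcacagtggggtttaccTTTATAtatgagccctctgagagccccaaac
Tnp1, chr1:73015900-73016019, minus strand: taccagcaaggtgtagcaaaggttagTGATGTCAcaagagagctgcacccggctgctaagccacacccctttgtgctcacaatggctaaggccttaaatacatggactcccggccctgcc
Ldhc, chr7:46861143-46861262, plus strand: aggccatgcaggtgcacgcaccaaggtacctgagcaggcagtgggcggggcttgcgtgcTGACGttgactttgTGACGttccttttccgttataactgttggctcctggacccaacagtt
Fhl5, chr4:25242853-25242972, minus strand: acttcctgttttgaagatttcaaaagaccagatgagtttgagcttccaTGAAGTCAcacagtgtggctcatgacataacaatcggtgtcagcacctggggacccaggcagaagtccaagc
The match in Prm1 lies 64 to 57 bases before the start, that in Tnp1 94 to 87, that in Fhl5 72 to 65, and the 2 cores in Ldhc 61 to 57 and 47 to 43. Ldhc and Fhl5 each have a second window, in which none of these letters was found. Prm1, Prm2 and Tnp2 lie together on chromosome 16 within 8889 bases (10787935 to 10796823). A match describes the letters and says nothing of binding in these cells.

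The values are RMA intensities, which give every probe set a number whether or not its RNA is present, so a ruler was needed for the signal of a silent gene. Genes made in other organs, such as lens crystallins, milk caseins, digestive enzymes and hair keratins, served as that ruler, with 135 probe sets of 95 genes. On each array the 95th percentile of these probe sets was taken as the ceiling of unexpressed genes, and it lay at log2 levels of 3.71 to 4.20 over the 7 arrays. Probe sets differ in how well they bind, so a level below the ceiling places a signal among those of silent genes and gives no amount of transcript. No testis sample was among the arrays, so the response of these probe sets to their RNA was not tested. Of 5 probe sets for the sort markers Kit and Slamf1, the gene of CD150, 3 were above the ceiling on all 7 arrays, 1 on 1 array and 1 on none. The brightest for each gene read 7.50 to 9.06 and 6.12 to 6.92. Beyond the sort markers, 21 of 25 probe sets of 16 stem cell genes were above it on at least 4. Of the lineage antigens, 0 of 7 probe sets of 5 genes (Cd3d, Cd3e, Cd3g, Cd4 and Cd8a) were above it on any array. Lists of other cell types did have probe sets above it on at least 4 arrays. These were 8 of 19 for macrophages, 5 of 23 for liver cells and 2 of 8 for red cells. For granulocytes, mast cells and lymphoid cells together they were 3 of 11. Of all probe sets, 48.2% were above it on at least 4 arrays. Endothelial transcripts were high in 3 arrays, where the mean log2 level of 24 probe sets was 6.22 (TFIIA nc/nc replicate 1), 6.59 (TFIIA nc/nc replicate 2) and 6.47 (wild-type replicate 1). It was 4.31 to 4.56 on the other 4 arrays.

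The sperm genes gave signals among those of silent genes in both genotypes. Of the 16 probe sets, 0 were above the ceiling on at least 4 of the 7 arrays, whereas 48.2% of all 22626 probe sets were. Only 1 of the 16, a Crem probe set, crossed the ceiling on any array, against 54.1% of all probe sets. The member probe sets ranged from 1.30 to 4.22 in single arrays, and their mean levels over the arrays had a median of 2.08, against 2.22 for the genes of other organs. On each array the median of the members, 1.94 to 2.35, lay below that of the genes of other organs, 2.10 to 2.45. A lower mark, the brightest probe set of the bacterial control TrpnX on each array, was passed on at least 4 arrays by 10 of the 16 (62.5%), by 71.9% of the probe sets of other organs and by 90.4% of all.

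**Figure D1:**
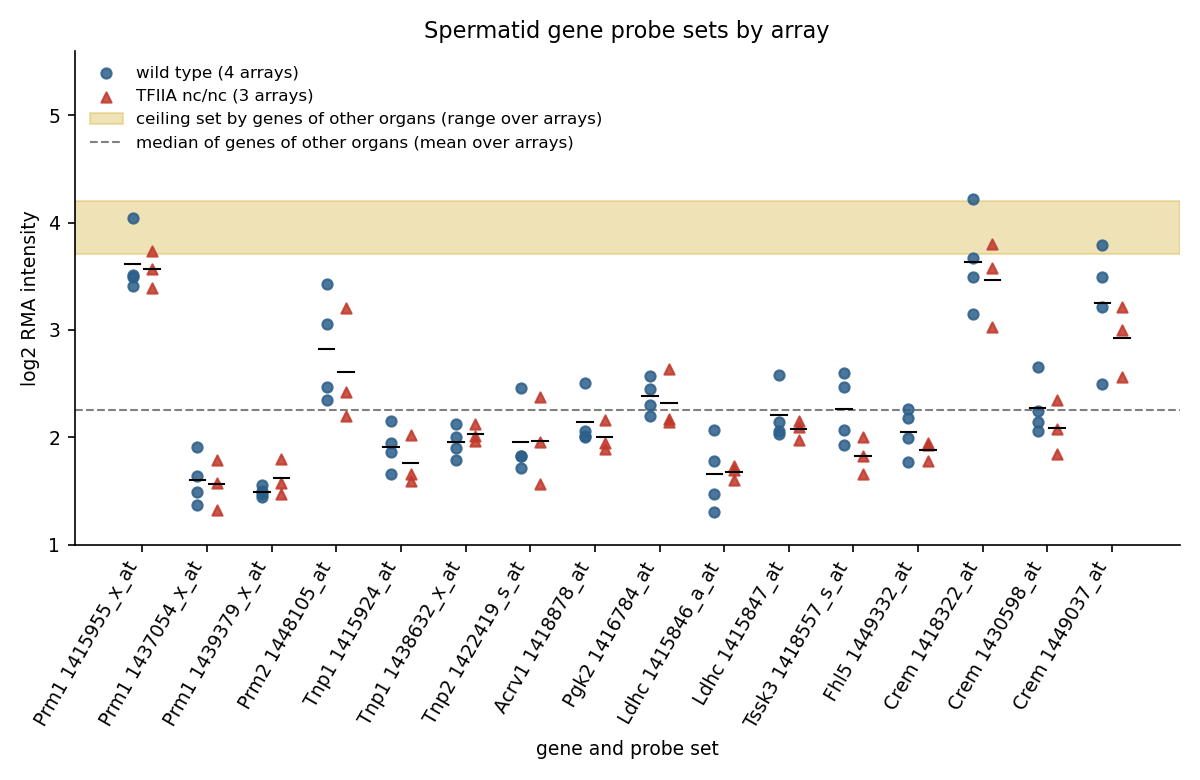
Log2 RMA intensity (vertical axis) of the 16 probe sets of the 10 sperm genes, with 1 point per array (circles, 4 wild-type arrays; triangles, 3 TFIIA nc/nc arrays) and a short bar at each group's mean. The band spans the ceilings of the 7 arrays, 3.71 to 4.20, and the dashed line is the mean over arrays of the median of genes of other organs. Against the ceiling of its own array, only Crem 1418322_at was higher, on 2 arrays.

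The protamines, which replace histones in the sperm nucleus, were measured by 4 probe sets. The brightest of the 3 for Prm1 (1415955_x_at) read 3.73, 3.56 and 3.39 in the TFIIA nc/nc samples and 4.04, 3.49, 3.41 and 3.51 in wild type. Its groups overlapped, and the highest value, wild-type replicate 1 at 4.04, was below that array's ceiling of 4.20. Wild type averaged 3.61 ± 0.29 (SD, n = 4) and TFIIA nc/nc 3.56 ± 0.17 (SD, n = 3) on the log2 scale, a difference of −0.05 (SE 0.19; limma, Benjamini-Hochberg adjusted p = 0.988). The other 2 Prm1 probe sets read 1.32 to 1.91 and 1.44 to 1.80. All 3 carry the suffix _x, by which the maker marks probes that may also bind other transcripts. Prm2 (1448105_at) read 3.20, 2.19 and 2.43 in TFIIA nc/nc and 3.42, 2.34, 3.05 and 2.47 in wild type. The higher values were those of TFIIA nc/nc replicate 1 and wild-type replicates 1 and 3, so the spread ran within both genotypes. The difference for Prm2 was −0.21 (SE 0.32; limma adjusted p = 0.984), with a 95% interval of −0.92 to 0.50. It ran from −0.51 to −0.0074 as each array was left out in turn.

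The transition proteins, which stand in for histones before the protamines arrive, were read by 3 probe sets, all below the ceiling on every array. Tnp1 (1415924_at) read 2.02, 1.60 and 1.66 in TFIIA nc/nc and 1.95, 1.87, 2.15 and 1.66 in wild type. The second Tnp1 probe set (1438632_x_at) carries the suffix _x, as do those of Prm1. It read 2.12, 1.97 and 2.01 in TFIIA nc/nc and 2.00, 1.79, 2.12 and 1.90 in wild type. The Tnp1 probe sets differed by −0.15 (SE 0.17) and by 0.08 (SE 0.14), in opposite directions, with limma adjusted p of 0.984 for each. Tnp2 (1422419_s_at) read 2.37, 1.57 and 1.95 in TFIIA nc/nc and 2.45, 1.82, 1.83 and 1.71 in wild type. Whether the Tnp2 probes also bind other transcripts was not tested. For Tnp2 replicate 1 of each genotype was the highest, and the difference was 0.01 (SE 0.24; limma adjusted p = 0.999). The closest that any of these 3 probe sets came to the ceiling of its array was 1.75 log2 units below it.

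The acrosomal and metabolic members were also below the ceiling on every array. Acrv1, which encodes a protein of the acrosome, the vesicle with which a sperm opens the egg coat, read 2.16, 1.95 and 1.89 in TFIIA nc/nc and 2.50, 2.00, 2.01 and 2.06 in wild type (1418878_at, difference −0.14, SE 0.17). Pgk2 is the phosphoglycerate kinase that takes over in the male germ line when the X-linked Pgk1 is silenced. It read 2.64, 2.14 and 2.17 in TFIIA nc/nc and 2.57, 2.30, 2.45 and 2.20 in wild type (1416784_at, difference −0.06, SE 0.18). The 2 probe sets of Ldhc, the lactate dehydrogenase of sperm, ranged from 1.30 to 2.07 and from 1.98 to 2.58 over the 7 arrays. They differed by 0.02 (SE 0.20) and −0.13 (SE 0.17), and no adjusted p of these 4 probe sets was below 0.984 in limma. The X-linked Pgk1 and the somatic lactate dehydrogenase Ldha, named for the highest means among the somatic relatives, were bright on the same arrays. Pgk1 (1438640_x_at) lay at 10.06 to 10.54 and Ldha (1419737_a_at) at 10.10 to 10.53. Even on the array where fewest lay below it, 98.0% of all probe sets were below each of them.

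Among the regulators, Tssk3, a kinase of maturing spermatids, had the largest difference of the 16. Its only probe set (1418557_s_at) read 2.00, 1.66 and 1.83 in TFIIA nc/nc and 2.47, 2.07, 2.60 and 1.93 in wild type. Whether the Tssk3 probes also bind other transcripts was not tested. The groups overlapped, since wild-type replicate 4 lay below TFIIA nc/nc replicate 1. The difference of −0.44 (SE 0.20) did not pass (limma, unadjusted p = 0.0537, adjusted p = 0.984), and an exact permutation test (2-sided, 35 ways to assign the arrays) gave p = 0.143. Fhl5 (1449332_at), the gene of the coactivator ACT, read 1.95, 1.93 and 1.78 in TFIIA nc/nc and 2.18, 2.26, 1.99 and 1.77 in wild type. The difference was −0.17 (SE 0.16; limma adjusted p = 0.984).

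Crem, the activator of the sperm programme and in somatic cells also the source of the repressor ICER, gave the highest single value. Its brightest probe set (1418322_at) read 3.57, 3.80 and 3.03 in TFIIA nc/nc and 4.22, 3.49, 3.67 and 3.15 in wild type. It crossed the ceiling in TFIIA nc/nc replicate 2, at 3.80 against 3.74, and in wild-type replicate 1, at 4.22 against 4.20, and lay below it on the other 5 arrays. The probe set 1449037_at read 3.21, 3.00 and 2.56 in TFIIA nc/nc and 3.79, 3.49, 2.49 and 3.22 in wild type, and 1430598_at ranged from 1.84 to 2.65. The 3 Crem probe sets differed by −0.16 (SE 0.27), −0.32 (SE 0.30) and −0.19 (SE 0.19), with overlapping groups and limma adjusted p of 0.984 each. No member was above the ceiling on at least 4 arrays, so genes with a pattern like that of a member were not sought.

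None of the members passed the test of the genotypes. Of 16 probe sets 0 had a limma Benjamini-Hochberg adjusted p under 0.05, against 0.00442% of all probe sets, and their adjusted p ran from 0.984 to 0.999. Of the 16, 0 had an unadjusted limma p under 0.05, against 4.00% of all (1.91% higher and 2.09% lower in TFIIA nc/nc). Tssk3 came under 0.05 in 6 alternative fits and with wild-type replicate 2 or 4 left out. The replicate block, among those 6, also lacked wild-type replicate 4. Crem 1418322_at came under 0.05 in 1 fit, and Crem 1449037_at with wild-type replicate 3 left out. None of these passed after adjustment. The groups did not overlap for 0 of 16, against 5.65% (2.85% higher and 2.81% lower), and the smallest exact permutation p of the 16 was 0.143, where the design allows 0.0286. The lowest bound of any 95% interval was −0.99, for Crem, and the highest was 0.55, for Tnp2. The largest rise in signal that any interval holds is thus 1.47-fold and the largest fall is to 0.504 of the wild-type signal. RMA compresses differences between dim probe sets, so these bounds are for the signal and not for the transcript.

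**Figure D2:**
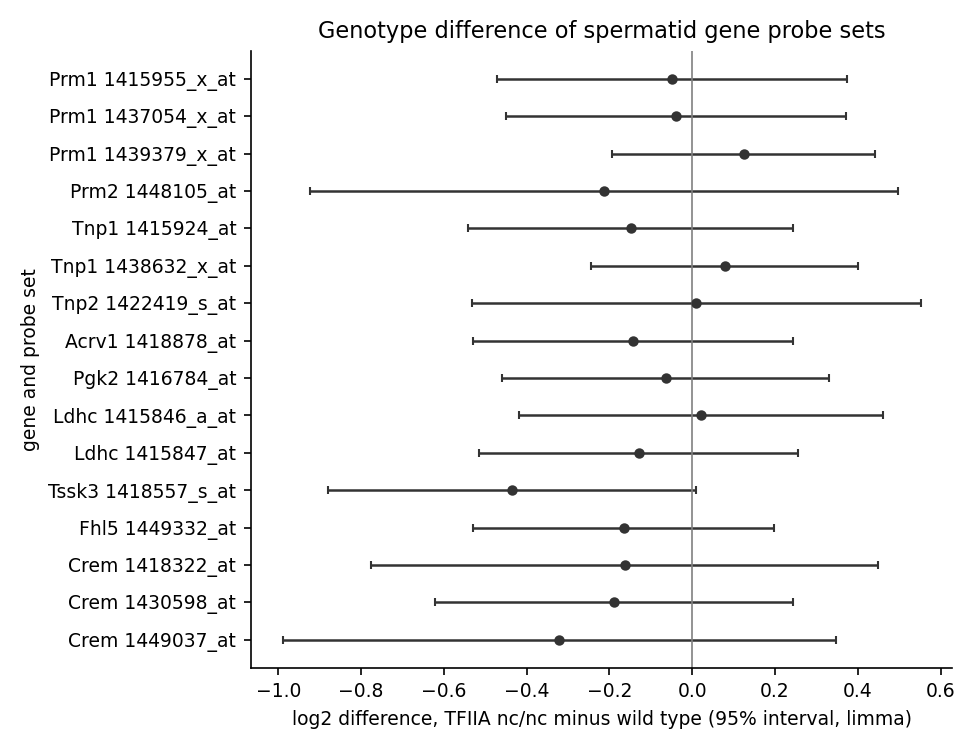
Log2 difference of each of the 16 probe sets, TFIIA nc/nc minus wild type (horizontal axis), with its 95% interval from limma (3 against 4 arrays). Every interval holds 0, and the lowest bound, −0.99, is that of Crem 1449037_at, whose interval reaches 0.35.

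The small differences leaned one way, as they did in genes of other organs. The members were lower in TFIIA nc/nc for 12 of 16 probe sets, with a median difference of −0.14. Among the genes of other organs 92 of 135 probe sets (68.1%) were lower, with a median of −0.07, and among all probe sets 51.9% were, with a median of −0.01. Of the 8945 probe sets with a mean log2 level under 3, 60.1% were lower, with a median of −0.04. With each array set to its own median of the genes of other organs, 9 of the 16 members were lower. The members were not spread evenly over the arrays. Wild-type replicates 1 and 3 held the highest value of 6 and 7 of the 16, and 31.9% and 18.5% of the probe sets of other organs were highest there. TFIIA nc/nc replicate 1 held the highest value of 2, and 26.7% of the probe sets of other organs were highest there. The lowest value was in TFIIA nc/nc replicate 2 for 7 members, and in TFIIA nc/nc replicate 3 and wild-type replicate 4 for 3 each. Of the probe sets of other organs 20.7%, 12.6% and 35.6% were lowest on these arrays. Of the arrays rich in endothelial transcripts, TFIIA nc/nc replicate 2 had the lowest member median, 1.94, and wild-type replicate 1 the highest, 2.35.

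**Figure D3:**
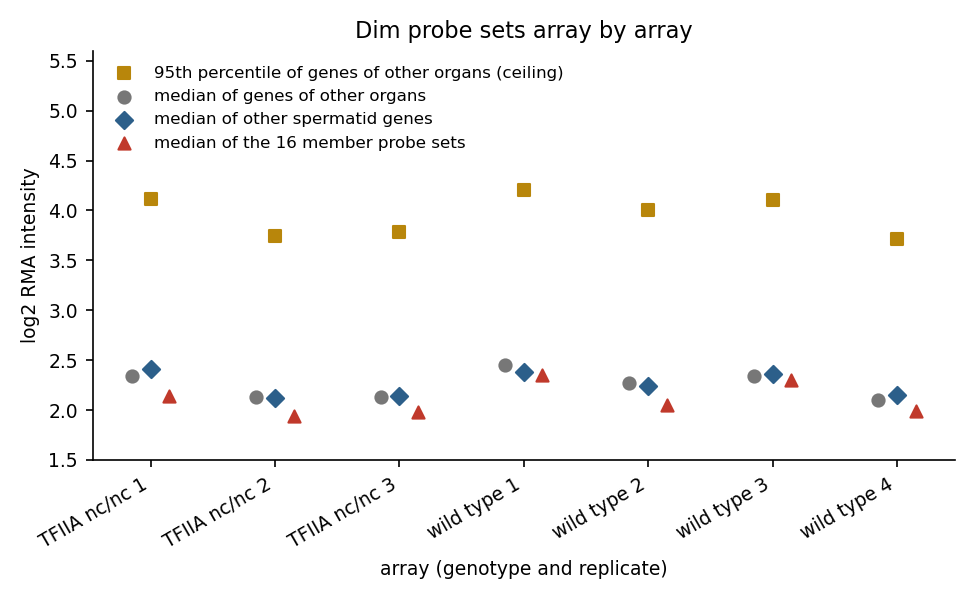
For each of the 7 arrays (horizontal axis), the median log2 RMA intensity of the 16 member probe sets, of 63 probe sets of other spermatid genes and of 135 probe sets of genes of other organs, and the 95th percentile of the last (the ceiling). The member median, 1.94 to 2.35, lies below the median of genes of other organs on every array.

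A wider list of spermatid genes, on the acrosome, the sperm tail, its kinases and its ion channels, behaved likewise. Of its 70 genes 52 were measured, by 63 probe sets with a median mean level of 2.22. On at least 4 arrays 3 of 63 probe sets (4.76%) were above the ceiling, against 48.2% of all, and they belonged to Hspa4l, a chaperone that is also made outside the testis, and Tcp11. Hspa4l (1449010_at) read 5.02, 5.08 and 4.85 in TFIIA nc/nc and 4.63, 4.40, 4.39 and 4.58 in wild type. Its groups did not overlap and the difference of 0.49 (SE 0.14) did not pass (limma adjusted p = 0.984). The brighter Hspa4l probe set (1418253_a_at) differed by 0.56 (SE 0.34), with wild-type values of 3.80 to 5.44 that overlapped those of TFIIA nc/nc. Tcp11 read 3.90 to 4.46 and differed by −0.05 (SE 0.16). Dkkl1 and Gapdhs crossed the ceiling on 1 and 2 arrays. Gapdhs, the glycolytic enzyme of the sperm tail, read 3.70, 3.49 and 3.56 in TFIIA nc/nc and 4.52, 3.52, 4.77 and 3.46 in wild type, with overlapping groups.

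Of the 63 probe sets 0 passed (limma adjusted p from 0.984), and 2 higher and 1 lower had an unadjusted p under 0.05, against 1.91% and 2.09% of all probe sets. The groups did not overlap for 3 (4.76%, against 5.65% of all probe sets), those of Hspa4l, Akap4 and Odf4. Akap4, the main scaffold of the sperm tail's fibrous sheath, read 2.53, 2.21 and 2.02 in TFIIA nc/nc and 1.98, 1.68, 1.86 and 1.75 in wild type, a difference of 0.44 (1451661_at, SE 0.17). Its other 2 probe sets differed by −0.02 and −0.24, with overlapping groups. Odf4 differed by −0.32 (SE 0.14) and Dkkl1 by −0.36 (SE 0.16), all with a limma adjusted p of 0.984. Akap4 and Gapdhs were named after their values were seen, the others in this list by rank of level or p.

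**Figure D4:**
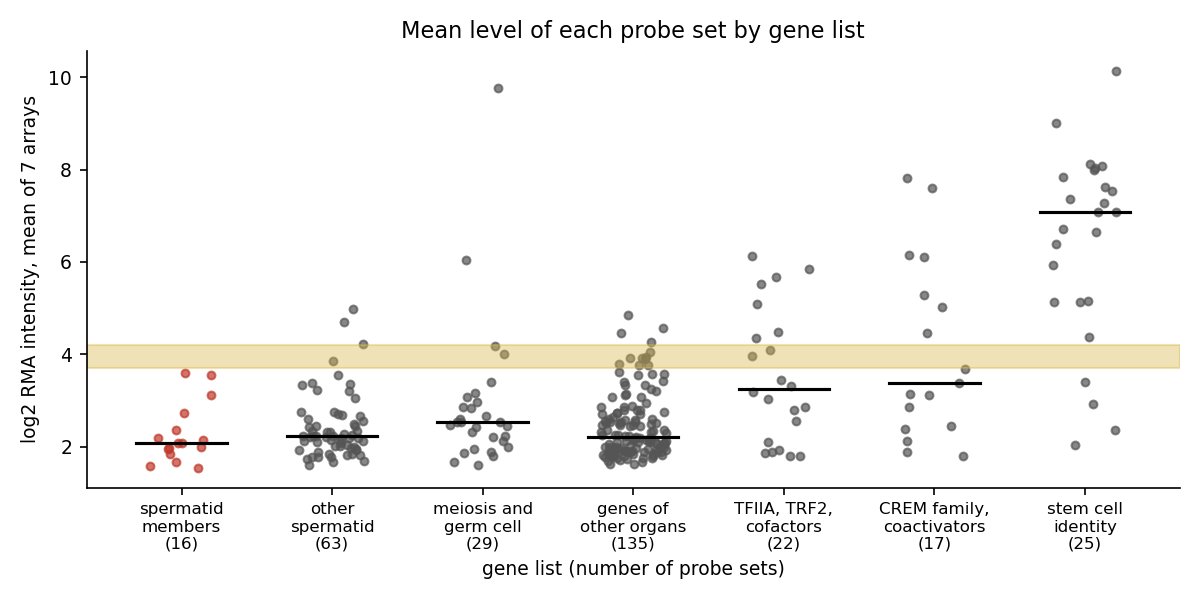
Mean log2 RMA intensity over the 7 arrays (vertical axis) of each probe set in 7 gene lists, with a bar at the median of each list. The band is the range of the ceilings, 3.71 to 4.20. The median is 2.08 for the members, 2.22 for other spermatid genes and for genes of other organs, and 7.09 for stem cell genes.

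Earlier stages of the germ line were read by 29 probe sets of 26 genes of meiosis and germ cells. Of all probe sets, 48.2% were above the ceiling on at least 4 arrays. The share for genes of other organs, 4.44%, is held low by definition, because they set the ceiling. Of the 29 probe sets, 4 (13.8%) were above the ceiling on at least 4 arrays. These were Syce2, Ddx4, Hspa2 and Msh5, the last 2 named after their values were seen. Syce2, a protein of the synaptonemal complex that joins chromosomes in meiosis, read 9.54 to 9.95, with 96.9% of all probe sets below it on the array where fewest were. Ddx4, the RNA helicase VASA by which germ cells are recognised, read 5.80, 5.79 and 6.22 in TFIIA nc/nc and 5.18, 6.01, 6.28 and 7.07 in wild type (1427242_at, difference −0.20, SE 0.37). Dazl, Sycp1, Sycp3, Dmc1, Spo11 and Piwil1, which mark germ cells or meiosis and were likewise named after their values were seen, were below the ceiling on all 7 arrays, in 8 probe sets. None of the 29 probe sets passed (limma adjusted p from 0.984), and 0 had an unadjusted p under 0.05. Ranked on the brightest probe set of each gene, Dppa3 (difference 0.31, SE 0.15) and Tex12 (0.17, SE 0.14) had the smallest p. The groups of Tex12 did not overlap, 1 of the 29 probe sets (3.45%), against 5.65% of all.

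Of the factors that drive the sperm programme in the testis, some were above the ceiling and others were not. Tbpl1, the gene of TRF2, read 5.70, 6.11 and 6.23 in TFIIA nc/nc and 6.20, 6.40, 6.17 and 6.12 in wild type, above the ceiling on all 7 arrays (difference −0.20, SE 0.17; limma adjusted p = 0.984). The testis forms of TFIIA, TAF7 and the bromodomain family, Gtf2a1l, Taf7l and Brdt, named after their values were seen, were below the ceiling on every array in 4 probe sets at 1.37 to 2.52. Over that list of 12 genes, 9 of 22 probe sets (40.9%) were above the ceiling on at least 4 arrays, a share below the 48.2% of all probe sets. In limma 0 passed, and 3 (all higher) had an unadjusted p under 0.05, where 1.91% of all probe sets did. Gtf2a1, the gene of the TFIIA large subunit and the one altered in TFIIA nc/nc embryos, differed by 1.14 (1454631_at, SE 0.50), 0.58 and −0.22 on its 3 probe sets. Whether the altered allele changes how these probe sets read was not tested. Taf7 differed by 0.52 (1423170_at, SE 0.18) and −0.17, and Tbp by −0.27 (SE 0.16) and −0.02. Among the kin and coactivators of CREM, 7 of 17 probe sets (41.2%, against 48.2% of all) were above the ceiling on at least 4 arrays. In limma 0 passed, and 0 had an unadjusted p under 0.05. The kinase A subunits led that list, with Prkar1a (1452032_at) at 7.32 to 8.23, Prkacb (1420611_at) at 5.69 to 6.51 and Prkaca at 4.78 to 5.25, and differences of 0.10, −0.26 and −0.22. The brightest Creb1 probe set, named after its values were seen, stayed below the ceiling, at 3.00 to 4.06.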

How the data were processed

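Per the submitters' processing notes, the authors made the deposited intensities with RMA in Affymetrix Expression Console, on a linear scale, 1 per probe set and array. The software version is not given in the sources used here. Their log2 was taken here with no pseudocount. Of 22690 probe sets 64 controls were left out. Probe sets were named from GEO's annotation of the array, with symbols brought up to date by Entrez ID (RefSeq, GRCm38.p6), and 20380 probe sets named 1 gene. All 22626 probe sets were fitted with lmFit and eBayes of limma 3.58.1 (R 4.3.3), TFIIA nc/nc minus wild type, without covariates, on 3 and 4 arrays. P-values are 2-sided and adjusted by Benjamini-Hochberg over all probe sets, threshold 0.05. The fit was run on simulated data with independent noise for each probe set. Shifts of whole arrays were not simulated, so that check does not cover them. For single probe sets, all 35 assignments of the arrays gave an exact permutation p (2-sided). The number of arrays limits the precision. Scan dates and detection calls were not used here, so batches were not tested.

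The members and gene lists were chosen with earlier results of these data known. Picked for naming were all members and, in each other list, the 2 genes of highest mean level and the 2 of smallest p. Both ranks used only the brightest probe set of each gene, so a smaller p on a dimmer probe set did not count. Of the genes of other organs, those nearest the ceiling were picked too. The rest of the genes named are marked as named after their values were seen. Not all picks are described here. Left out are those of the stem cell gene, endothelial and other cell type lists, and some genes of other organs. Alternatives covered the choice of probe set, normalization, pseudocount, dim probe sets, prior, array weights, replicate block, embryo number, endothelial level, threshold, ceiling and each array left out. The correlation of deviations of same-numbered samples was 0.36, −0.15 and 0.05, so the numbers were not taken to pair the samples.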

Additional observations from a re-analysis of the deposited data

Results flagged for a closer look

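In wild type, 3 of the 16 member probe sets had 1 array far from the other 3 by Dixon's ratio (0.836 to 0.876), past its 95% critical value for 4 samples, which chance alone exceeds in about 1 group in 20. Each time it was replicate 1, a sample of 1 embryo. The Prm1 probe set 1415955_x_at read 4.04 there against 3.41 to 3.51 in the others, Acrv1 read 2.50 against 2.00 to 2.06, and Tnp2 read 2.45 against 1.71 to 1.83. That array also had the highest median of genes of other organs, 2.45 against 2.10 to 2.34 in the other 6, and a high endothelial mean, 6.47. All 3 values were below its ceiling of 4.20. The part of the array in these values was not tested.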

How the results depend on the processing

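Under every alternative run, 0 of the member probe sets passed, and the limma adjusted p ranged from 0.736 to 1.00 over 298 differences. The sign changed in 29 of these, 16 of them with 1 array left out. Leaving out 1 array gave −0.10 to 0.16 for Ldhc 1415846_a_at, −0.134 to 0.0923 for Prm1 1415955_x_at, −0.152 to 0.0808 for Prm1 1437054_x_at, −0.224 to 0.0251 for Pgk2, −0.331 to 0.0578 for Crem 1418322_at and −0.19 to 0.21 for Tnp2. With the sign kept, it gave −0.51 to −0.0074 for Prm2, −0.57 to −0.14 for Crem 1449037_at, −0.32 to −0.06 for Crem 1430598_at, −0.22 to −0.02 for Acrv1, −0.19 to −0.0039 for Ldhc 1415847_at, −0.28 to −0.07 for Tnp1 1415924_at, 0.02 to 0.13 for Tnp1 1438632_x_at, 0.03 to 0.20 for Prm1 1439379_x_at, −0.26 to −0.10 for Fhl5 and −0.55 to −0.32 for Tssk3. Same-numbered samples were not shown to be paired. The replicate block was fitted without wild-type replicate 4, which has no same-numbered TFIIA nc/nc sample. With it 0 of 16 passed, and Tssk3 had the smallest unadjusted p of all alternatives, 0.0157 (limma adjusted p = 0.792). Tssk3 was at −0.548, Ldhc 1415846_a_at at −0.0963 and Tnp2 at −0.0719, the same differences as with that array merely left out. Tssk3 also had an unadjusted p under 0.05 after quantile (0.0351) and cyclic loess normalization (0.0331), with a trended robust prior (0.0402), array weights (0.0364) and the endothelial mean as a covariate (0.0479), and without wild-type replicate 2 (0.0478) or 4 (0.0205). In limma, Crem 1418322_at went to −0.45 with the endothelial covariate (unadjusted p = 0.0323, adjusted p = 0.957), and Crem 1449037_at to −0.57 without wild-type replicate 3 (unadjusted p = 0.0333, adjusted p = 1.00). No limma adjusted p among these was under 0.788. Ldhc 1415846_a_at was at −0.00050 with log2(value + 16), −0.00489 with array weights and −0.00709 with embryo number as a covariate. Tnp2 was at −0.0583 with array weights and −0.106 with the endothelial mean as a covariate. Prm1 1415955_x_at was at 0.00152 with embryo number. Prm1 1437054_x_at was at 0.00721 after cyclic loess. With each array set to the median of genes of other organs, added after seeing the data, Prm1 1415955_x_at was at 0.0380, Prm1 1437054_x_at at 0.0485 and Pgk2 at 0.0238. On only the 4 arrays low in endothelial transcripts, also added then, Prm1 1439379_x_at was at −0.0125. The cause of these changes was not tested.

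The ceiling counts depend on the mark. Against the brightest TrpnX probe set, 10 members, 46 other spermatid, 24 meiosis and germ cell, 17 TFIIA and TRF2 and 15 CREM family probe sets were above it. With the 90th percentile 1 member was (Prm1 1415955_x_at, on 4 arrays), and with the 99th percentile 2 meiosis and germ cell probe sets were. Asking for all 7 arrays left 1 other spermatid, 2 meiosis and germ cell and 4 TFIIA and TRF2 probe sets, and asking for 1 array gave 1 member and 5 other spermatid probe sets. Left-out arrays kept the member count at 0. Signals this near the floor limit what a difference in transcript can show, and restricting the fit to probe sets with a mean above the median left no member to test.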

Other observations

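Ldhb, which encodes the heart-type lactate dehydrogenase and is a relative of Ldhc, read lower in TFIIA nc/nc on each of its 4 probe sets. The brightest (1434499_a_at) read 6.48, 6.14 and 6.68 in TFIIA nc/nc and 6.83, 7.10, 7.24 and 7.21 in wild type. On none of the 4 did the groups overlap, and 2.81% of all probe sets were likewise lower without overlap. The differences were −0.77, −0.66, −0.61 and −0.66 (SE 0.15 to 0.23), and none passed over all probe sets (limma, adjusted p = 0.984 each). The 4 probe sets measure the same RNA and are not independent. Ldha differed by 0.22 (SE 0.14), also with groups that did not overlap, where 2.85% of all probe sets were higher without overlap. Over the 17 probe sets of somatic relatives, which include those of Ldhb and Ldha, groups did not overlap for 35.3%, against 5.65% of all.

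Some genes of other organs were themselves above the ceiling that they set. Cela1, a pancreatic elastase, read 4.61 to 5.34 and Cyp21a1 (1455691_at), an adrenal hydroxylase, 4.01 to 4.59, both above it on all 7 arrays. Guca1a, of the photoreceptor, was above it on 6 and differed by −0.41 (SE 0.16; limma adjusted p = 0.984). Tnni2 (1416889_at), of fast muscle, read 3.43 to 5.22. Ins2 and Omp, near the ceiling, were above it on 3 and 4 arrays.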
